A study of Homo sapiens with 18 samples.

Results

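The E2F transcription factors and their DP partners were followed in U-87MG glioblastoma cells in which the secreted amino acid oxidase IL4I1 was expressed and the aryl hydrocarbon receptor AHR was knocked down. The members were the 8 E2F genes E2F1 to E2F8 and the partner genes TFDP1 and TFDP2. Each was represented by exactly 1 probe set with a single gene symbol, so all 10 of 10 were found among 15529 named genes, and no probe set was shared with another symbol. The members were named by family and not by their values, although earlier results of these data were known when they were chosen.

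RNA was measured on 18 arrays in 6 groups of 3. Stable lines carried a lentiviral vector for IL4I1 with the hairpin shAHR1, shAHR2 or the non-targeting shCtrl, or the empty vector with shAHR1, shAHR2 or shCtrl. All groups thus shared a viral vector selected with puromycin and a hairpin construct, and all were grown for 120 hours after plating. U-87MG is an established human glioblastoma line. How many infections or clones stand behind a line is not given in the sources used here. The sample titles number the 3 arrays of a group without naming separate experiments, so they measure the spread between arrays of the same line. A change in a bulk sample cannot separate fewer cycling cells from less RNA per cell.

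E2F proteins bind the promoters of genes needed for DNA synthesis and mitosis. E2F1, E2F2 and E2F3 activate these genes as dimers with a DP protein once cyclin-dependent kinases have released them from the retinoblastoma protein RB1. E2F4 and E2F5 mostly repress the same genes in resting cells together with the RB1 relatives RBL1 and RBL2. E2F6 represses through Polycomb proteins without any pocket protein, and E2F7 and E2F8 bind DNA without a DP partner and shut E2F targets down late in S phase. Several family genes are themselves E2F targets.

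The engineered genes followed the labels. On the log2 scale IL4I1 itself measured 12.67 to 13.01 in transgene lines (9 arrays) and 5.27 to 6.43 in vector lines (9 arrays). AHR lay between 7.45 and 8.16 in the hairpin lines and between 9.84 and 10.33 in the shCtrl lines, and fell by 1.98 to 2.41 under the hairpins with IL4I1 and by 2.23 to 2.27 without it. The mesenchymal glioma markers VIM and FN1 averaged 12.04 and 12.18 in IL4I1 shCtrl cells, and 12.14 and 12.34 in shCtrl cells. CD44 and TNC averaged 10.70 and 10.91 in the former, and 10.99 and 10.74 in the latter. NES, of the same list, was much dimmer, at 5.93 and 6.20. These values lay within the range of group means of the neuron and epithelial markers. Of 3 measured astrocyte markers 1 fell with IL4I1 on average over the backgrounds, the glutamate transporter SLC1A3 (-1.01 ± 0.11, limma adjusted p = 2.98e-05), and the mean of these markers was 6.01 to 6.85 on the IL4I1 arrays, against 6.88 to 7.24 on the vector arrays. GFAP, the astrocyte filament gene, differed by -0.18 ± 0.11 on average (adjusted p = 0.336), with -0.74 ± 0.20 in shCtrl cells (adjusted p = 0.0418), 0.16 ± 0.20 in shAHR1 cells and 0.03 ± 0.20 in shAHR2 cells. Of 3 neuron markers SNAP25 fell (-0.78 ± 0.14, adjusted p = 0.00126), and of 3 leukocyte and microglia markers CSF1R fell (-0.66 ± 0.14, adjusted p = 0.00537). Of 5 mesenchymal, 2 oligodendrocyte and 3 epithelial markers 0 passed. The means of the neuron, leukocyte and microglia, oligodendrocyte, epithelial and mesenchymal markers overlapped between IL4I1 and vector arrays, and the part of any marker in the results was not tested. Arrays had medians of 6.46 to 6.53. Replicate 2 of the shCtrl cells stood apart, with an interquartile range of relative log expression of 0.529 against 0.319 to 0.472 on the other arrays, and counts it moved are given without it.

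IL4I1 expression was accompanied by lower RNA of E2F1, E2F2, E2F7, E2F8 and TFDP1, whereas E2F3, E2F4, E2F5, E2F6 and TFDP2 did not pass the test. Averaged over the 3 hairpin backgrounds, these 5 of 10 members fell and 0 rose (limma, Benjamini-Hochberg adjusted p under 0.05), beside 7.21% of all genes that fell. The median change of the 10 members was -0.47 on the log2 scale, against 0.01 over all genes. In shCtrl cells 4 members fell (2.56% of all genes fell), in shAHR1 cells 3 fell (0.753%) and in shAHR2 cells 1 fell (0.277%). Without shCtrl replicate 2 only E2F7 kept its call in shCtrl cells, while over all genes 134 fell in place of 398. The member that fell in each of these backgrounds was E2F7.

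**Figure D1:**
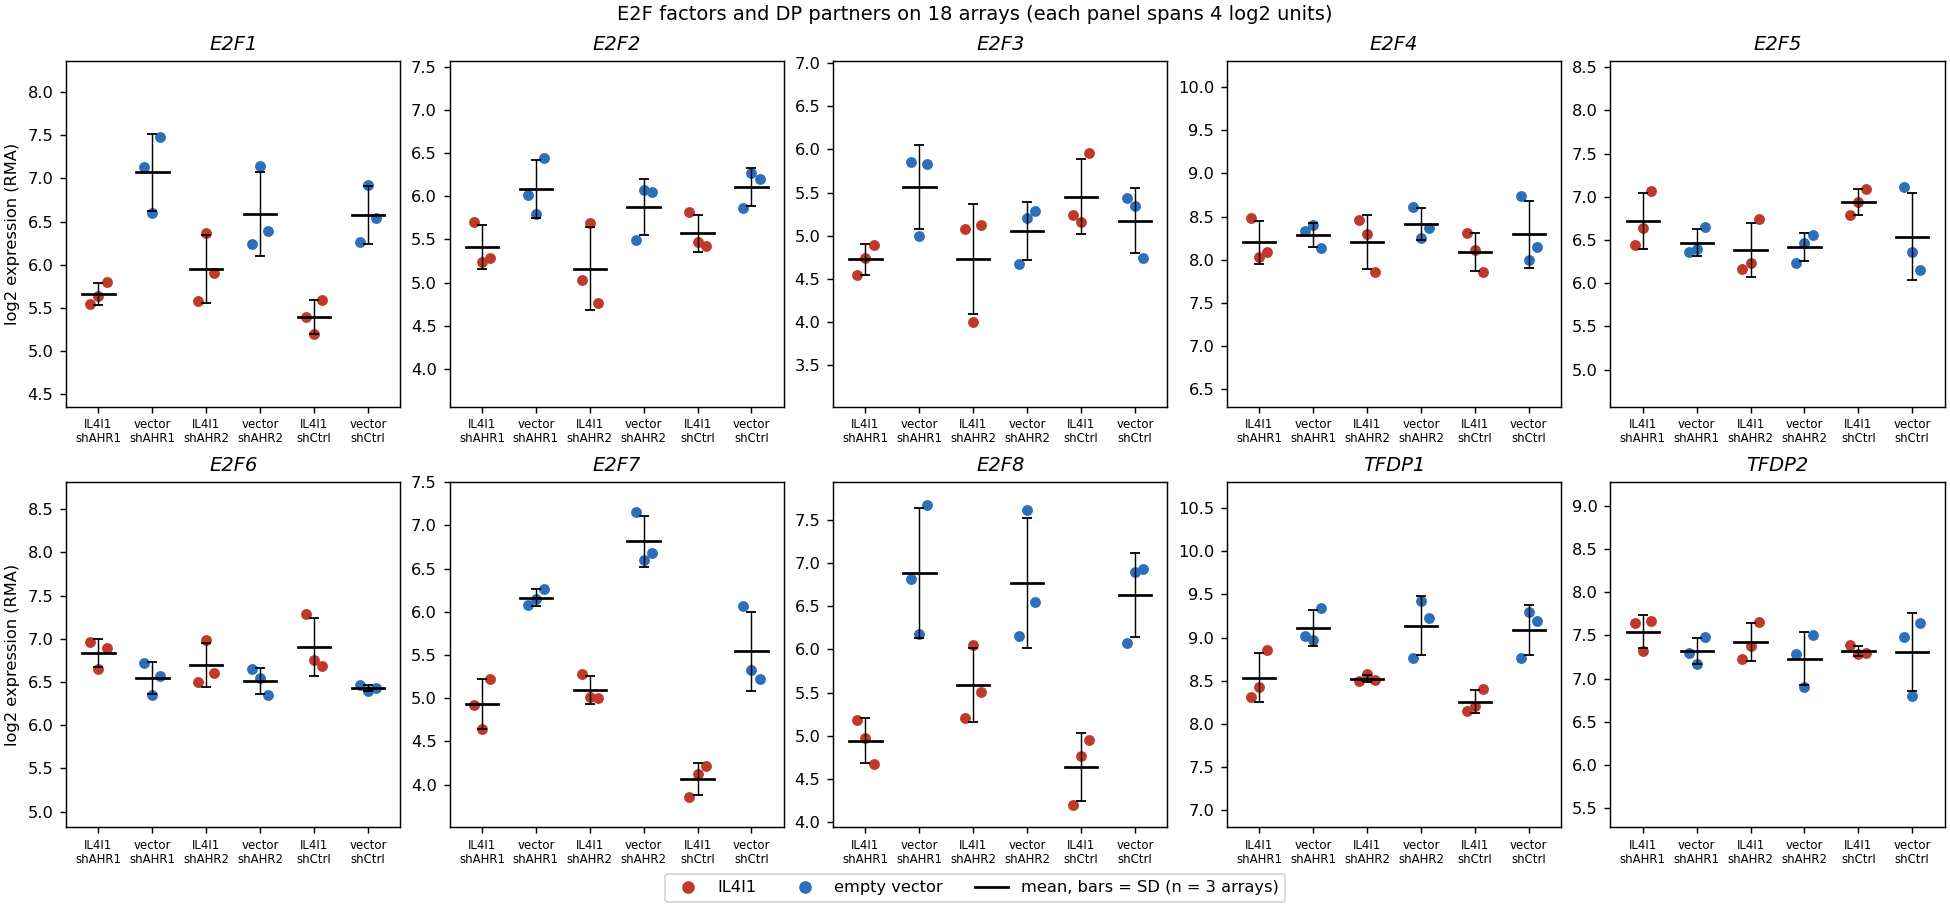
Log2 expression of each member (vertical axes, RMA values, all spanning 4 log2 units) on the 18 arrays, by group; points are arrays, bars the mean and SD of 3. The means of E2F1, E2F2, E2F4, E2F7, E2F8 and TFDP1 are lower in each IL4I1 group (red) than in its vector partner (blue). For E2F7, E2F8 and TFDP1 the arrays do not overlap in any background, which is no test by itself. The change of E2F4 did not pass. E2F7 in vector cells has its highest mean, 6.82, with shAHR2.

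Among the activators, E2F1 is the member best known for driving entry into S phase. In IL4I1 shCtrl cells its log2 level was 5.40, 5.20 and 5.59, against 6.27, 6.93 and 6.54 in shCtrl cells. With shAHR1 it was 5.54, 5.64 and 5.80 in IL4I1 cells, against 7.14, 6.60 and 7.48 in vector cells. With shAHR2 it was 5.58, 6.36 and 5.91 in IL4I1 cells, against 6.24, 7.14 and 6.39 in vector cells. The groups did not overlap with shCtrl and shAHR1 and overlapped with shAHR2. E2F1 fell by 1.18 ± 0.27 (SE) in shCtrl cells, 2.27-fold, and by 1.41 ± 0.27 in shAHR1 cells (limma adjusted p = 0.022 and 0.020). The difference in shAHR2 cells, -0.64 ± 0.27, did not pass (adjusted p = 0.36), and the mean over the backgrounds was -1.08 ± 0.16 (adjusted p = 2.7e-04).

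The RefSeq promoter windows of GRCh38.p14 were read for 8 of 10 members, all but E2F5 and E2F8, because the E2F family is known to act on its own promoters. The 250 bases before the annotated start are printed for the 4 members with a window that fell on average with IL4I1. They are E2F1 at chr20:33686386-33686635 (minus strand), E2F2 at chr1:23531234-23531483 (minus strand), TFDP1 at chr13:113584503-113584752 (plus strand) and E2F7 at chr12:77065570-77065819 (minus strand). Sequences run 5′ to 3′ on the gene's strand, and capitals mark E2F words on either strand.
E2F1: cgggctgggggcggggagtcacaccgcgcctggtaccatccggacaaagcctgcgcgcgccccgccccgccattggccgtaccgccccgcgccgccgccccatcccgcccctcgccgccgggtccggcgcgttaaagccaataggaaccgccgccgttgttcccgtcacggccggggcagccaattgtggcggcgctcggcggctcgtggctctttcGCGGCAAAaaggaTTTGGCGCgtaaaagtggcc
E2F2: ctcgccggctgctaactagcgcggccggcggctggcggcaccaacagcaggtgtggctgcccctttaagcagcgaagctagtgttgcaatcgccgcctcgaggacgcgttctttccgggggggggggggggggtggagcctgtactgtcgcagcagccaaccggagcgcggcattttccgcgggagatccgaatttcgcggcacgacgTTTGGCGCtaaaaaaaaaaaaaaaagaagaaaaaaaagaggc
TFDP1: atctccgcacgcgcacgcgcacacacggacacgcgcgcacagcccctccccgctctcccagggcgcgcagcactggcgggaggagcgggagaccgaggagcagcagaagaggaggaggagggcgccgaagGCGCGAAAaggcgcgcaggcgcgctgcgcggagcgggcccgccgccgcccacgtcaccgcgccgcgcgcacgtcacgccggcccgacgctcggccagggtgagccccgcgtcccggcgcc
E2F7: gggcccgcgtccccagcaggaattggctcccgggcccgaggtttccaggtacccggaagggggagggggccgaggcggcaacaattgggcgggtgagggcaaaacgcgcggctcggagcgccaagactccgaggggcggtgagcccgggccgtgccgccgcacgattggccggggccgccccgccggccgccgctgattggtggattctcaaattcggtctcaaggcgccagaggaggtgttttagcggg

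The E2F words searched were TTTCGCGC, TTTGGCGC, TTTCCCGC and TTTGCCGC, on both strands, with overlapping matches counted. At least 1 of them stood in 2.78% of 34786 distinct RefSeq windows of this length. Of the 8 members read, 4 held a word, with 5 matches in all. Counted by window, as in that share, it was 4 of the 11 windows read. The share over all windows was not matched for G and C content, which was 32.8% to 78.4% in the member windows. E2F1 had 2, GCGGCAAA and TTTGGCGC, between 33 and 13 bases before its start. E2F2 had 1, TTTGGCGC, 42 to 35 bases before its start, E2F3 had 1 at the first of its 2 starts, and TFDP1 had 1, GCGCGAAA, 120 to 113 bases before its start. E2F4, E2F6, E2F7 and TFDP2 had 0. The words TTTCGCGG and TTTGGCGG, found in 0.883% of all windows, were added after the members' windows had been read, so their matches were partly chosen to be there. They gave 1 further match each in E2F1, E2F2 and E2F3, which are not capitalised on their own account, and brought the matches to 8 in the same 4 members, against 3.6% of all windows with any of the 6 words. In E2F1 the added match overlapped GCGGCAAA. The core GCGTG bound by AHR with its partner ARNT was found in 32.2% of all windows and in 3 of the 11 read. It stood in TFDP1 (4 matches), E2F6 (1) and TFDP2 (1), and in none of the other members read. The cell cycle words TTTGAA and TTCGAA stood in 14.4% of all windows and in 3 of the 11 read, those of E2F3 and TFDP2. None of the capitalised words overlapped either of these other motifs.

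E2F2, a close relative of E2F1, was lower in IL4I1 cells in every background without passing in any single one. Its level was 5.82, 5.47 and 5.42 in IL4I1 shCtrl cells, against 5.86, 6.27 and 6.20 in shCtrl cells. It was 5.71, 5.24 and 5.29 in IL4I1 shAHR1 cells, against 6.01, 5.80 and 6.45 in shAHR1 cells. These groups did not overlap, although the nearest shCtrl arrays differed by less than 0.05. With shAHR2 its level was 5.03, 5.69 and 4.76 in IL4I1 cells, against 5.50, 6.08 and 6.05 in vector cells, and the groups overlapped. The changes were -0.54 ± 0.25, -0.67 ± 0.25 and -0.71 ± 0.25 in shCtrl, shAHR1 and shAHR2 cells (limma adjusted p = 0.25, 0.22 and 0.21). Their mean of -0.64 ± 0.14 passed (adjusted p = 0.0064).

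E2F3, the activator that makes a long and a short protein from separate starts, was dim and scattered. It ranged from 4.00 to 5.96 on the 9 arrays with IL4I1 and from 4.68 to 5.85 on the 9 without. With IL4I1 it differed by 0.28 ± 0.32 in the shCtrl background, by -0.83 ± 0.32 with shAHR1 and by -0.33 ± 0.32 with shAHR2, and the mean of -0.29 ± 0.19 did not pass (limma adjusted p = 0.35). Only 1 probe set stood for the gene, so its RNA forms cannot be told apart.

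The repressors that work with RBL1 and RBL2 moved less. E2F4, the most widely expressed E2F in many resting tissues, lay between 7.86 and 8.48 with IL4I1 and between 7.99 and 8.74 without it. Its mean change was -0.17 ± 0.12, with a 95% interval of -0.43 to 0.09 (limma adjusted p = 0.44). E2F5 lay between 6.16 and 7.09 with IL4I1 and between 6.15 and 7.11 without it, with a mean change of 0.20 ± 0.14 and an interval of -0.08 to 0.49 (adjusted p = 0.38).

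E2F6, the Polycomb-linked repressor, was the member with the highest positive mean change. Its level was 7.29, 6.75 and 6.68 in IL4I1 shCtrl cells, against 6.47, 6.40 and 6.43 in shCtrl cells, and these arrays did not overlap. The change there was 0.48 ± 0.18 (limma adjusted p = 0.15), and the mean over the backgrounds was 0.32 ± 0.10 (adjusted p = 0.059). It therefore did not pass, although it did so in 3 of the alternative analyses described later.

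E2F7 had a mean IL4I1 change of -1.48 ± 0.13 (limma adjusted p = 4.5e-06), the lowest adjusted p of the 10 members. In IL4I1 shCtrl cells its level was 3.86, 4.13 and 4.21, against 6.07, 5.33 and 5.23 in shCtrl cells. In IL4I1 shAHR1 cells it was 4.92, 4.65 and 5.22, against 6.08, 6.15 and 6.27 in shAHR1 cells. In IL4I1 shAHR2 cells it was 5.28, 5.01 and 5.0, against 7.15, 6.61 and 6.69 in shAHR2 cells. Every IL4I1 array lay below every vector array of the same hairpin. The changes were -1.48 ± 0.22, -1.23 ± 0.22 and -1.72 ± 0.22 in shCtrl, shAHR1 and shAHR2 cells (adjusted p = 0.0018, 0.014 and 0.0014). The mean of 4.06 in IL4I1 shCtrl cells lay in the lowest 1% of all group means, those of 4.51 or less, where array values are compressed.

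E2F8, the closest relative of E2F7, had the most negative mean change, -1.71 ± 0.23 (limma adjusted p = 1.5e-04). Its level was 4.20, 4.76 and 4.96 in IL4I1 shCtrl cells, against 6.07, 6.90 and 6.92 in shCtrl cells. It was 5.19, 4.97 and 4.67 in IL4I1 shAHR1 cells, against 6.81, 6.18 and 7.68 in shAHR1 cells. With shAHR2 it was 5.20, 6.05 and 5.51 in IL4I1 cells, against 6.15, 7.61 and 6.55 in vector cells. All 9 IL4I1 arrays lay below all 9 vector arrays, with 6.05 as the highest IL4I1 value and 6.07 as the lowest vector value. E2F8 fell by 1.99 ± 0.40 in shCtrl cells, 3.98-fold, and by 1.94 ± 0.40 in shAHR1 cells (adjusted p = 0.011 and 0.029), and the change of -1.18 ± 0.40 in shAHR2 cells did not pass (adjusted p = 0.20). Its residual SD within groups, 0.54, was the largest of the members. The E2F8 mean of 4.64 in IL4I1 shCtrl cells lay just above the 4.51 limit of the lowest 1%. The size of its change there is therefore uncertain too, and its order relative to E2F7 was not tested.

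The DP partners differed from each other. TFDP1, the main dimer partner of the activators, was at 8.15, 8.21 and 8.41 in IL4I1 shCtrl cells, against 8.76, 9.30 and 9.20 in shCtrl cells. It was at 8.32, 8.43 and 8.85 in IL4I1 shAHR1 cells, against 9.02, 8.97 and 9.35 in shAHR1 cells, and at 8.50, 8.58 and 8.51 in IL4I1 shAHR2 cells, against 8.76, 9.43 and 9.23 in shAHR2 cells. The groups did not overlap in any background. TFDP1 fell by 0.83 ± 0.20 in shCtrl cells (limma adjusted p = 0.027), the changes of -0.58 ± 0.20 and -0.61 ± 0.20 in shAHR1 and shAHR2 cells did not pass (both adjusted p = 0.18), and the mean was -0.67 ± 0.11 (adjusted p = 8.7e-04). TFDP2, the second partner, ranged from 7.22 to 7.67 with IL4I1 and from 6.80 to 7.64 without it. Its mean change was 0.14 ± 0.12, with a 95% interval of -0.12 to 0.40 (adjusted p = 0.52).

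**Figure D2:**
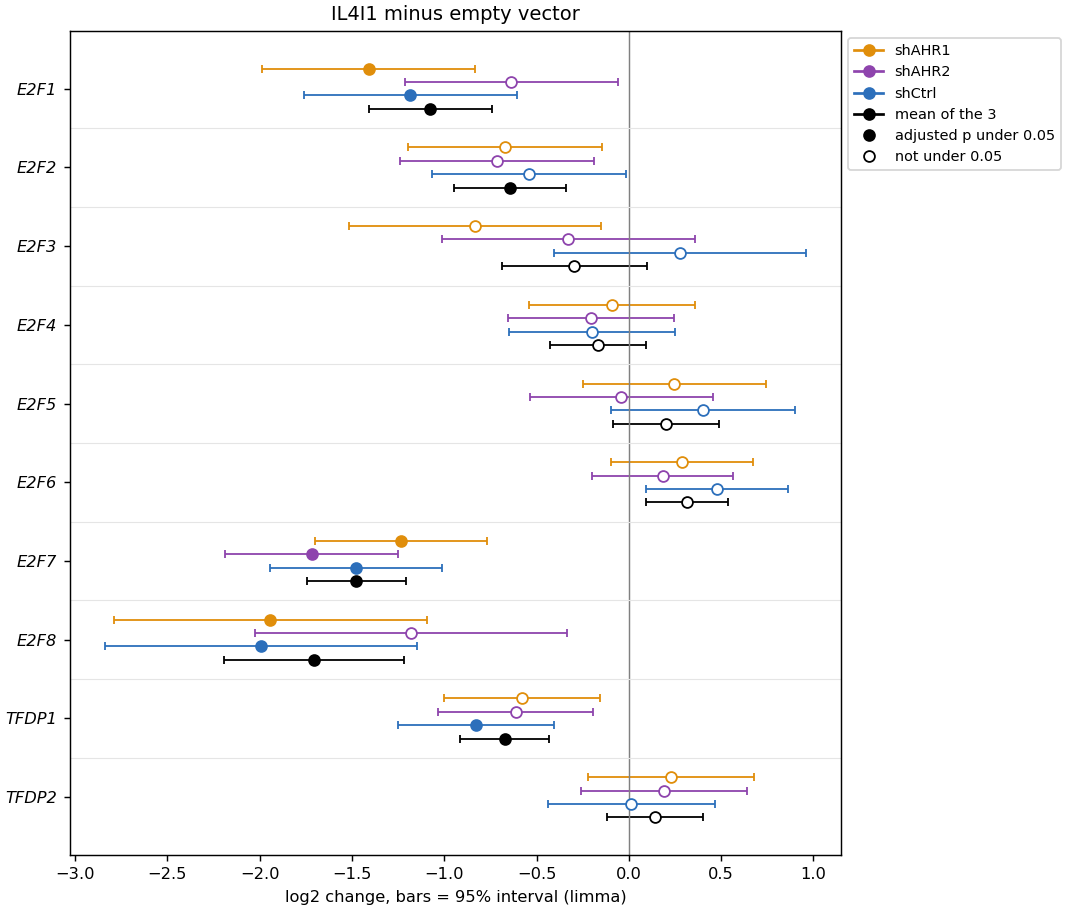
Log2 change with IL4I1 over the empty vector (horizontal axis) for each member in shAHR1, shAHR2 and shCtrl cells and as their mean; bars are 95% intervals, filled points passed at an adjusted p under 0.05. The means of E2F1, E2F2, E2F7, E2F8 and TFDP1 lie at -1.08, -0.64, -1.48, -1.71 and -0.67, and those of the other members nearer 0.

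The calls within a single background were less stable than the mean. In shCtrl cells E2F1 and TFDP1 each lost the call without shCtrl replicate 2 or 3 or IL4I1 shCtrl replicate 1 or 2 (adjusted p up to 0.11 and 0.12), and E2F8 without shCtrl replicate 2 or IL4I1 shCtrl replicate 1 (up to 0.060), while E2F7 kept it in 6 of 6 such fits. In shAHR1 cells all 3 calls were lost without shAHR1 replicate 3 or IL4I1 shAHR1 replicate 2, those of E2F1 and E2F8 also without replicate 1 of either group, and that of E2F8 without IL4I1 shAHR1 replicate 3 as well (adjusted p up to 0.12, 0.084 and 0.15 for E2F1, E2F7 and E2F8). The 5 mean changes passed in each of 18 fits that omitted a single array. The mean draws on 9 arrays against 9, and omitting an array does not test differences between lines.

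The hairpin comparisons asked whether loss of AHR altered the same genes. E2F7 was the 1 member that passed, and it was higher. In shAHR2 cells without IL4I1 it rose by 1.27 ± 0.22 over shCtrl cells, 2.42-fold (limma adjusted p = 0.013), 1 of 10 members beside 0.47% of all genes that rose. In IL4I1 shAHR2 cells it rose by 1.03 ± 0.22 over IL4I1 shCtrl cells (adjusted p = 0.031), again 1 of 10 members, beside 0.766% of all genes. With shAHR1 it was higher by 0.62 ± 0.22 without IL4I1 and by 0.87 ± 0.22 with it, neither of which passed (adjusted p = 0.28 and 0.065), so that 0 of 10 members rose (0.296% and 0.972% of all genes rose). In all 4 comparisons the arrays of the hairpin line lay above those of the shCtrl line, and the 2 hairpins share these shCtrl arrays. With shAHR1 and no IL4I1 the nearest arrays almost touched, at 6.076 for shAHR1 and 6.070 for shCtrl. The call without IL4I1 was lost without shAHR2 replicate 1 (adjusted p = 0.065) and without shCtrl replicate 2 (0.074), and that with IL4I1 did not survive 5 of 6 such omissions (adjusted p 0.078 to 0.14), and remained only without IL4I1 shCtrl replicate 3 (0.048).

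No other member passed in these comparisons. Under shAHR1 without IL4I1 E2F1 differed by 0.50 ± 0.27, E2F8 by 0.26 ± 0.40 and TFDP1 by 0.03 ± 0.20 (limma adjusted p = 0.54, 0.88 and 0.98). Under shAHR2 without IL4I1 the same genes differed by 0.01 ± 0.27, 0.14 ± 0.40 and 0.05 ± 0.20 (adjusted p = 0.99, 0.95 and 0.96). In IL4I1 cells with shAHR2, E2F8 was higher by 0.95 ± 0.40 and did not overlap with IL4I1 shCtrl cells, but did not pass (adjusted p = 0.33). E2F3 was lower by 0.73 ± 0.32 and 0.72 ± 0.32 in IL4I1 cells with shAHR1 and shAHR2 (adjusted p = 0.36 and 0.38), also without overlap, and E2F5 by 0.56 ± 0.23 with shAHR2 (adjusted p = 0.33).

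**Figure D3:**
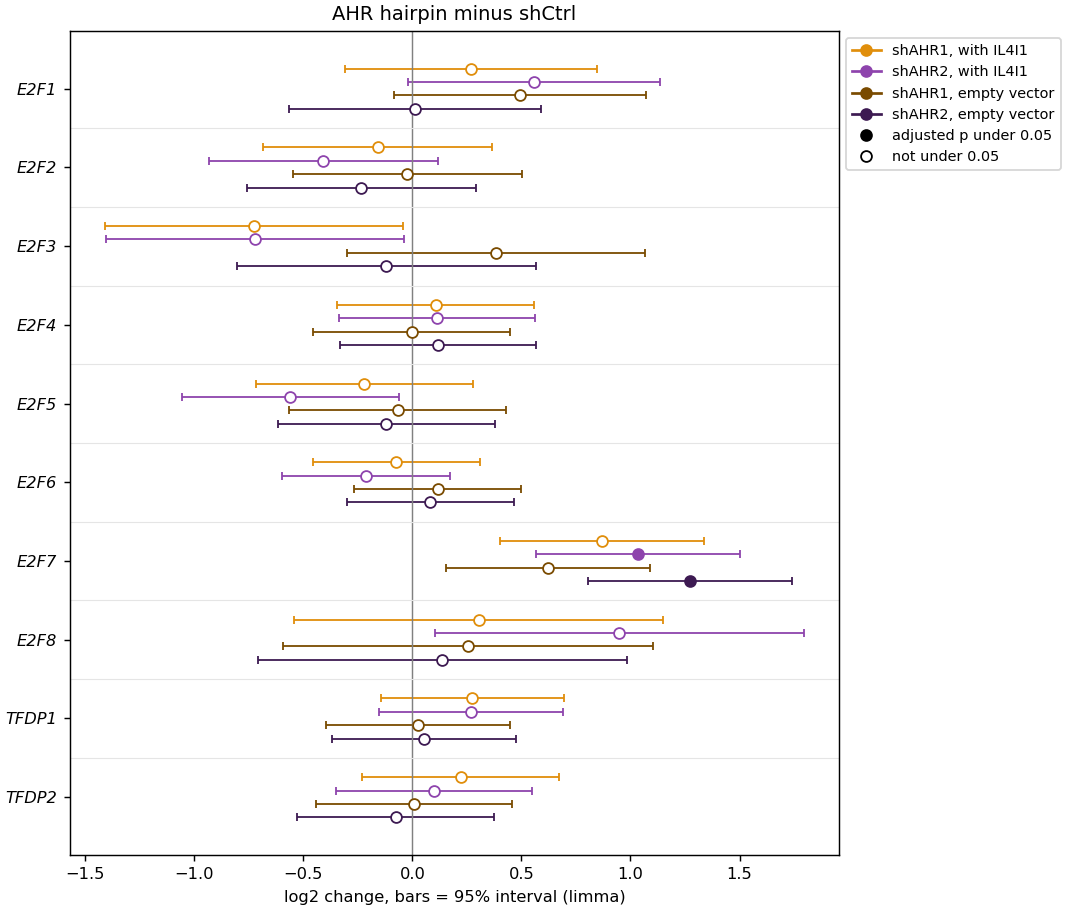
Log2 change of each AHR hairpin over shCtrl (horizontal axis), with IL4I1 and with the empty vector; bars are 95% intervals, filled points passed at an adjusted p under 0.05. E2F7 lies right of 0 in all 4 comparisons, between 0.62 and 1.27, and both shAHR2 values passed.

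The 2 hairpins were also set against each other directly, where 0 of 10 members and 0% of all genes were called, with or without IL4I1 (limma; 1070 genes without and 1131 with IL4I1 had an unadjusted p under 0.05). E2F7 was lower by 0.65 ± 0.22 in shAHR1 than in shAHR2 cells without IL4I1, with a 95% interval of -1.12 to -0.18 (adjusted p = 0.57). With IL4I1 that difference was -0.16 ± 0.22 (adjusted p = 0.95).

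Whether the hairpins altered the IL4I1 response was tested as an interaction, and 0 of 10 members passed. Over all genes 0% were called for shAHR1, 0.0129% for shAHR2 and 0.0193% for the mean of both. With shAHR1 the interaction was 0.24 ± 0.31 for E2F7 (95% interval -0.42 to 0.91, limma adjusted p = 0.957), -0.23 ± 0.38 for E2F1 (-1.04 to 0.59, 0.982) and 0.05 ± 0.56 for E2F8 (-1.15 to 1.25, 0.997). With shAHR2 it was -0.24 ± 0.31 for E2F7 (-0.90 to 0.42), 0.55 ± 0.38 for E2F1 (-0.27 to 1.36) and 0.81 ± 0.56 for E2F8 (-0.39 to 2.01), each with a limma adjusted p of 1.0. The 2 hairpins thus had estimates of opposite sign for E2F7 and E2F1, and the mean of both was 0.00 ± 0.27 for E2F7. E2F3 was the member whose interval excluded 0, with -1.11 ± 0.46 under shAHR1 (-2.08 to -0.14, adjusted p = 0.824), and under shAHR2 it was -0.60 ± 0.46 (-1.57 to 0.36). The E2F1 and E2F8 calls in shCtrl but not in shAHR2 cells therefore do not show that these backgrounds differ, and the wide shAHR2 intervals do not show that they are alike.

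The study's design text sets IL4I1 cells with an AHR hairpin against shCtrl cells without IL4I1. In IL4I1 shAHR1 cells 1 of 10 members fell, E2F8 (-1.69 ± 0.40, limma adjusted p = 0.024), beside 2.12% of all genes. In IL4I1 shAHR2 cells 1 of 10 fell, E2F2 (-0.95 ± 0.25, adjusted p = 0.047), beside 1.19% of all genes. E2F7 differed from shCtrl cells by -0.61 ± 0.22 and -0.45 ± 0.22 (adjusted p = 0.14 and 0.31), against -1.48 ± 0.22 for IL4I1 shCtrl cells, and these comparisons share their controls. The calls of E2F8 and E2F2 each failed in 4 of 6 fits that omitted a single array, among them those without shCtrl replicate 2 (adjusted p = 0.10 and 0.17) and without shCtrl replicate 3 (0.085 and 0.12). The others were those without IL4I1 shAHR1 replicates 2 and 3 for E2F8 and without IL4I1 shAHR2 replicates 1 and 3 for E2F2.

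Genes downstream of the E2F factors were lower in IL4I1 cells as well. Of 28 measured replication targets 25 fell and 0 rose on average over the backgrounds, with a median change of -1.05, beside 7.21% of all genes that fell and a median of 0.01 over all genes. RFC3, a clamp loader subunit, fell by 1.34 ± 0.15, the helicase subunit MCM3 by 1.52 ± 0.18 and MCM10 by 1.73 ± 0.23 (limma adjusted p from 3.7e-05 to 1.3e-04). In shCtrl cells 19 of 28 fell, in shAHR1 cells 13 and in shAHR2 cells 1, with medians of -1.11, -1.09 and -0.92. Without shCtrl replicate 2 the count in shCtrl cells was 7 of 28, with a median of -1.05, while over all genes 134 fell in place of 398. The mean over the backgrounds then still had 25 of 28, with a median of -1.02. Of 10 measured targets in repair, chromatin and the cell cycle 8 fell on average, among them PLK4 of centriole duplication (-2.66 ± 0.29), the chromatin remodeller HELLS (-2.13 ± 0.29) and BRCA1 (-1.49 ± 0.21), with a list median of -1.34. In shCtrl cells 6 of these 10 fell, and 2 without shCtrl replicate 2. In shAHR1 cells only CDK1 and PLK4 of this list fell (limma adjusted p = 0.0361 and 0.0275), and in shAHR2 cells only PLK4 (0.0466). PLK4, HELLS and MCM10 each had an IL4I1 group mean of 4.51 or less, in the compressed lowest 1%, as did ORC1, GINS2 and CDK1, so the sizes of their changes are uncertain. PLK4 averaged 3.47, 4.04 and 2.72 in IL4I1 cells with shAHR1, shAHR2 and shCtrl, against 5.97, 6.41 and 5.83 in the vector cells. Under the hairpins 0 of the 28 and 0 of the 10 passed in any of the 4 comparisons with shCtrl.

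Genes that act on or with the E2F factors were measured too. RBL1, the pocket protein that binds E2F4 and is itself an E2F target, fell by 1.01 ± 0.16 on average and RB1 by 0.31 ± 0.08 (limma adjusted p = 5.6e-04 and 0.014). RBL2 was at 0.05 ± 0.09 (adjusted p = 0.80). The median of these 3 was -0.31. The counts that follow are over the mean of the 3 backgrounds, where 7.21% of all genes fell and 5.36% rose. A list of 9 held cyclins and kinases that act on RB1 and CDC25A, a phosphatase of CDK2. Of these 3 fell, CDK2 (-0.86 ± 0.12), CDC25A (-1.11 ± 0.20) and cyclin E2, CCNE2 (-1.46 ± 0.35), with a list median of -0.40. CDC25A and CCNE2 had IL4I1 group means in the compressed lowest 1% as well. Of 5 measured CDK inhibitors CDKN1A, which encodes p21, rose by 0.65 ± 0.13 and CDKN2D fell by 0.42 ± 0.10 (adjusted p = 0.0040 and 0.014; list median 0.02). Among 5 regulators of E2F proteins SKP2, which targets E2F1 and p27 for degradation, fell by 0.70 ± 0.12, cyclin F, CCNF, by 0.97 ± 0.18 and the cofactor HCFC1 by 0.37 ± 0.10 (list median -0.37). Of 7 genes of the MuvB core and its partners, which take part in repression with E2F4 and in mitotic activation, 3 fell, FOXM1 (-2.20 ± 0.35), MYBL2 (-1.63 ± 0.25) and LIN52 (-0.34 ± 0.10), with a list median of -0.34. Without shCtrl replicate 2, LIN52 lost its call (adjusted p = 0.056) and LIN9 gained one (0.0493).

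Some members varied together between arrays of the same group. After subtraction of group means, the 6 pairs among E2F1, E2F2, E2F8 and TFDP1 correlated between 0.42 and 0.84 over 18 arrays, as a description without a test, and E2F7 correlated with each of these 4 genes between -0.42 and -0.33. E2F4 correlated with them between -0.72 and -0.02. Without shCtrl replicate 2 these ranges were 0.39 to 0.85, -0.39 to -0.27 and -0.68 to 0.06. The 4 genes are the members other than E2F7 that fell on average with IL4I1, so the set was taken from these data. Other pairs reached values in the lower part of the 0.42 to 0.84 of the 6 pairs. After the same subtraction E2F3 correlated with E2F5 (0.54), E2F7 with E2F5 (0.53) and E2F4 (0.51), and E2F2 with E2F6 (0.48). The median level of the replication targets, as a deviation from each gene's mean, ranged from -0.73 to -0.23 on the IL4I1 arrays and from 0.11 to 1.02 on the vector arrays. Pooled over the groups after subtraction of group means, this level had r = 0.86 with E2F8, 0.71 with E2F1 and -0.49 with E2F7. Taken group by group, with 3 arrays in each, the sign was positive in 6 of 6 groups for E2F8 and in 5 for E2F1, but negative in only 3 of 6 for E2F7. These points share the arrays and their normalisation, and cell number or cycle stage was not measured.

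**Figure D4:**
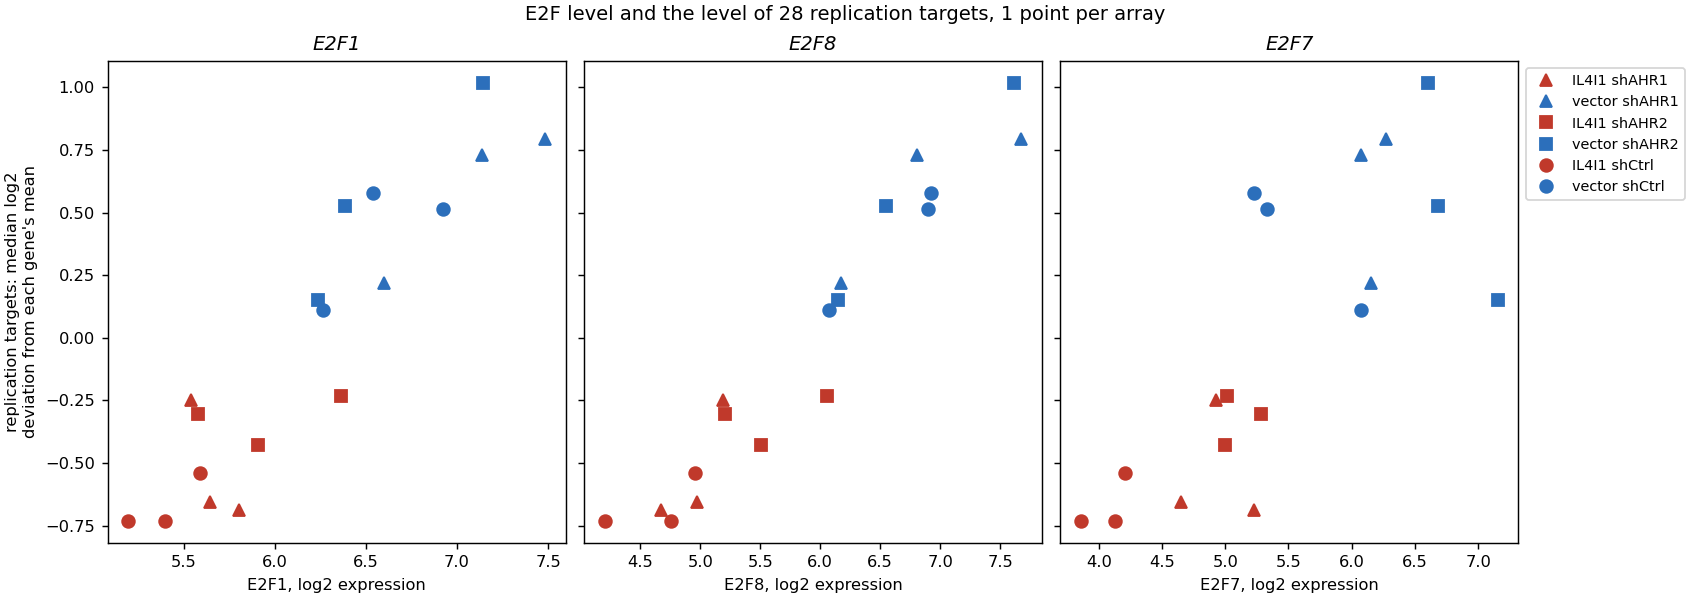
Median log2 deviation of 28 replication targets (vertical axis) against log2 expression of E2F1, E2F8 and E2F7 (horizontal axes), 1 point per array; red is IL4I1, blue the empty vector, and shapes give the hairpin. All red points lie below 0 and all blue ones above it, and pooled over groups after subtraction of group means r is 0.86 for E2F8 and -0.49 for E2F7, where the E2F7 sign is negative in 3 of 6 single groups.

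The genes whose levels over the 18 arrays were most like a member's were taken from non-members with a mean of at least 6.46. For E2F8 they were STIL, UHRF1 and RNASEH2A (Pearson r = 0.956, 0.956 and 0.955, and 0.86 to 0.91 within groups), for E2F1 WDR76, MCM6 and MCM3 (0.927, 0.924 and 0.914, and 0.68 to 0.70 within groups), and for TFDP1 NCAPG, MCM8 and KIF20B (0.953, 0.953 and 0.943). For E2F7 they were TMTC4, NR2F1 and ARHGAP29 (0.943, 0.933 and 0.927), with values within groups of 0.54, 0.10 and 0.21. E2F2 was most like COMMD10, MTHFD1 and CMC2 (0.906, 0.869 and 0.868), E2F4 like TMEM222 (0.861), E2F6 like TBX22 (0.833) and E2F5 like FGFRL1 (0.798). TFDP2 and E2F3 had the weakest nearest genes, PTPN9 (0.774) and THAP7 (0.675). Without shCtrl replicate 2 all 3 nearest genes remained for E2F4, E2F7 and E2F8, 2 of 3 for E2F1, E2F2, E2F5, E2F6 and TFDP1, and 1 of 3 for E2F3 and TFDP2, which lost THAP7 and PTPN9. Values over all 18 arrays also carry the difference between IL4I1 and vector arrays, and they describe these arrays alone.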

How the data were processed

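Expression was measured on 1-colour Affymetrix arrays of biotin-labelled cDNA. The authors made the deposited log2 intensities with oligo and RMA, per the submitters' processing notes, which name no versions. The log2 scale was read from values between 1.11 and 13.4. RMA makes array distributions alike, so a shift of all RNA cannot be seen. Of 18913 probe sets, 15598 had 1 gene symbol, 1173 symbols were updated through RefSeq, and the brightest probe set per gene left 15529 genes. Group means of the 18 arrays were fitted for all genes (limma 3.58.1 under R 4.3.3, lmFit and eBayes), and p-values were adjusted over all genes. The fit was tested on simulated data. Errors of changes are standard errors, and n is 3 arrays per group, the limit to precision: an exact permutation test of 3 against 3 cannot go below 0.1. Named genes are all members, pathway lists with examples of the lowest adjusted p, and the 3 genes most correlated with each member. Members, lists and comparisons were chosen with earlier results of these data known, and 2 of the 6 E2F words were added after the members' promoter windows had been read. Listed genes without a probe set of a single symbol were not analysed here. Of 45 same-numbered pairs of arrays 12 correlated over 0.1, and all 3 pairs did so in 1 of 15 pairs of groups, shAHR1 with shCtrl. The replicates were therefore not treated as paired elsewhere, and in that comparison 0 members passed with or without the block. The lists, correlations and likeness without shCtrl replicate 2 were added after seeing the data.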

Additional observations from a re-analysis of the deposited data

How the results depend on the processing

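Of 17 member changes that passed, 0 changed direction in any fit. Over the 8 settings other than leaving out an array, 113 of 129 calls were kept, 16 were lost and 6 were gained. With only the arrays of the compared groups in the fit, members called numbered 1 for IL4I1 in shCtrl cells (of 4; E2F8 remained), 0 for IL4I1 in shAHR1 cells (of 3) and 0 for shAHR2 against shCtrl without or with IL4I1 and for IL4I1 shAHR2 against shCtrl cells without IL4I1 (of 1 each); this fit has fewer residual arrays. Trend and robust, and quantile normalisation again, each left 0 for shAHR2 with IL4I1 (E2F7 adjusted p = 0.051 and 0.058). Array weights gave 2 for IL4I1 in shAHR2 cells and 1 for shAHR1 with IL4I1 (E2F7, adjusted p = 0.038). Without dim genes, which removes E2F2 and E2F3, E2F7 also passed for shAHR1 with IL4I1 (1, adjusted p = 0.034), IL4I1 shAHR1 against shCtrl cells without IL4I1 had 2 and IL4I1 shAHR2 against them 0. Requiring a change of at least 1 left 0 for that last comparison and 3 for the IL4I1 mean. With the replicate block, E2F2 in IL4I1 shAHR2 cells against shCtrl cells without IL4I1 lost its call (0 members, adjusted p = 0.057), and no other call of a member changed. E2F6 passed for the IL4I1 mean without dim genes (adjusted p = 0.034), after quantile normalisation again (0.041) and without IL4I1 shCtrl replicate 3 (0.043). Leaving out an array gave 1 to 4 members for IL4I1 in shCtrl cells, 0 to 3 in shAHR1 cells, 1 to 1 in shAHR2 cells and 5 to 6 for the mean, and 0 to 1 for shAHR2 against shCtrl without and with IL4I1 and for both comparisons with shCtrl cells without IL4I1. Among members that passed in neither of the fits compared, 116 of 2112 values changed sign. Searching the 2 E2F words added later brought the matches in member promoters to 8, against 5, in 4 members either way. In shCtrl cells, leaving out shCtrl replicate 2, an alternative chosen after seeing the data, gave 7 replication targets that fell in place of 19, and 2 in place of 6 in repair, chromatin and the cell cycle, and both mean counts stayed at 25 and 8.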

Other observations

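The E2F6 side of the family was also measured. Of 9 measured genes of its Polycomb complex 0 passed with IL4I1, with a median mean change of 0.03 and a range of -0.27 to 0.19. Of 3 measured germ cell genes that E2F6 is known to repress 0 passed (median -0.03), with the cohesin gene SMC1B at 0.43 ± 0.20 (limma adjusted p = 0.20). Among 4 measured apoptosis genes regulated by E2F1, APAF1 of the apoptosome fell by 0.52 ± 0.09 (limma adjusted p = 9.6e-04) and BCL2L11, a BH3-only death gene, was at 0.64 ± 0.22 (adjusted p = 0.068), with a list median of -0.16 against 0.01 over all genes.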
